A study of Mus musculus with 4 samples.

Results

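The genes described here are 10 parts of the circadian clock of mouse muscle: Arntl, Clock, Per1, Per2, Per3, Cry1, Cry2, Nr1d1, Nr1d2 and the output factor Dbp. They were chosen by name, each stood on 1 row of the deposited table, and the table as a whole had 37305 rows with 33923 distinct gene symbols. RNA sequencing of enriched mRNA gave their abundance in tissue labelled GTN muscle of C57BL/6 mice. MCK-TD (libraries A and B) was compared with Con-TD (libraries F and G), 2 libraries per genotype. The labels expand neither genotype name, nor GTN, and name no altered gene, promoter, age or sex. They also do not say whether each library came from a separate animal, and p-values then reflect nothing but how these libraries scatter, which could be technical. No time of day, light schedule or feeding state is given. For transcripts that rise and fall daily, the hour of tissue collection and the genotype therefore cannot be told apart.

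The mammalian clock is a feedback loop of transcription. The proteins of Arntl (BMAL1) and Clock bind together to E-box sequences and switch on the Per, Cry, Nr1d1, Nr1d2 and Dbp genes. PER and CRY proteins then repress BMAL1 and CLOCK, while the nuclear receptors REV-ERB alpha and beta (Nr1d1 and Nr1d2) repress Arntl through sites that they share with the ROR receptors. DBP, a leucine zipper factor, activates genes with D-box sequences, the Per genes among them. In skeletal muscle the loop is known for setting daily rhythms of glucose uptake and fuel use, and Arntl transcripts peak at the opposite phase to those of Nr1d1 and Dbp.

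The sequences below are those before the transcription starts of the 4 members whose abundance differed by the test given further on, with a short stretch of Arntl. Letters of known clock binding sequences stand in those of Cry2, Nr1d1, Per3 and Arntl, and none of the letters searched stands in that of Dbp. They are RefSeq sequences of build GRCm38.p6, another build than the mm9 of the deposited values. Cry2 is shown at chr2:92434070-92434319 (minus strand), Nr1d1 at chr11:98775378-98775627 (minus strand), Dbp at chr7:45704997-45705246 (plus strand) and Per3 at chr4:151044666-151044915 (minus strand), each over the 250 bases before the start. Arntl is shown over 30 bases at chr7:113207530-113207559 (plus strand). Capitals mark the letters AACGTG in Cry2 and Nr1d1, TTATGTAA in Per3 and TAGGTCA in Arntl.
Cry2: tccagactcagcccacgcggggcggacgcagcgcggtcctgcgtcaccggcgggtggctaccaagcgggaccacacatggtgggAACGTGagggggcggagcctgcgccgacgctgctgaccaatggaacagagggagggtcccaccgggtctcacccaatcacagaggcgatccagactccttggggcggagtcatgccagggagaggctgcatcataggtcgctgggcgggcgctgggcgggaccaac
Nr1d1: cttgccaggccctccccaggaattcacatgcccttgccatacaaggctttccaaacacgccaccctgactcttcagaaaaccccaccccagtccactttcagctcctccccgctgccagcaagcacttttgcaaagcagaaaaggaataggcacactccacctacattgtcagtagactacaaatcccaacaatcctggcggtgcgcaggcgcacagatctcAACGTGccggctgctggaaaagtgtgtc
Dbp: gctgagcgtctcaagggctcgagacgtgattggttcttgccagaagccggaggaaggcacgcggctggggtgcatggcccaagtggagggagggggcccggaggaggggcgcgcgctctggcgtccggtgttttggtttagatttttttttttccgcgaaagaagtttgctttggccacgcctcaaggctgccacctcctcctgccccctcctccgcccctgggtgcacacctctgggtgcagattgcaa
Per3: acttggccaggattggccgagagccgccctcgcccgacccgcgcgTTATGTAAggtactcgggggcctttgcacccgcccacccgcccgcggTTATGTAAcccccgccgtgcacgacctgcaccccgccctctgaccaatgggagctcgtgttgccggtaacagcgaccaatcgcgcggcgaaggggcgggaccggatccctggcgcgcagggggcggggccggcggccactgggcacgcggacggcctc
Arntl: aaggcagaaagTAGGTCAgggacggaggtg

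The letters of known binding sequences were searched on both strands in windows of 300 bases, 250 before and 50 after the start. These were the E-box CACGTG, the related E-prime box CACGTT, the D-box TTATGTAA or TTACGTAA, the core of the REV-ERB and ROR element TAGGTCA or TGGGTCA, and the cyclic AMP element TGACGTCA. None of these letter strings contains another. RefSeq gave 13 windows for 9 of the members. Per2 was without one. Among all 32851 promoter windows, 7.15% held the E-box, 4.68% the E-prime box, 1.06% the D-box, 6.45% the core of the REV-ERB and ROR element and 1.79% the cyclic AMP element. The Per3 window held the D-box letters at 2 places, 205 and 158 bases before the start. Cry2 held AACGTG, the E-prime box read on the other strand, 166 bases before its start, and Nr1d1 held it 28 bases before. Cry1 held both an E-box, 60 bases before its start, and an E-prime box, 79 bases before. An E-box stood 166 bases before the start in 1 of the windows of Per1. TAGGTCA stood in 1 of the windows of Arntl, beginning at base 31 of the transcript. The windows of Dbp, Clock and Nr1d2 held none of these letters. A match is a description of the sequence, and binding was not measured.

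Abundance is given as FPKM, the fragments of a gene scaled by its transcript length and by the mapped fragments of the library, so that levels can be compared between genes. The absolute depth of the libraries is unknown. From the value of a single fragment in low rows, relative depth was 0.955 and 0.945 in MCK-TD A and B, against 1 and 0.934 in Con-TD F and G. The fit took log2(FPKM + 1) of the 12474 rows with a mean of at least 1 FPKM, and a gene was called at a limma adjusted p under 0.05. Over all of these rows 30.8% were called, 24.3% higher and 6.45% lower in MCK-TD. At an unadjusted limma p under 0.05, 4281 of these rows were higher and 1378 lower. The median row was higher in MCK-TD by 0.22 on the log2 scale. Median of ratios scaling removes that shift, and under it 26.7% of rows were called, 14.6% higher and 12.1% lower. Quantile normalization gave 26.1%, with 12.7% higher and 13.4% lower. Rescaling on rows that are neither mitochondrial nor small RNA gave 32.1%, with 26.9% higher and 5.14% lower. The libraries of the genotypes did not overlap for 72.0% of rows, 50.7% with MCK-TD above and 21.3% with MCK-TD below. The tissue label was checked by 8 myofibre markers, which were abundant in every library, and of which 5 were called lower, among them Ckm, and 1, Des, higher. Ckm, muscle creatine kinase, was at 5666 and 6567 FPKM in MCK-TD, against 14321 and 12601 FPKM in Con-TD. Macrophage markers rose in MCK-TD. The summed FPKM of 10 macrophage markers was 213 and 181 in MCK-TD, against 39.2 and 57.4 in Con-TD, 7 of the 9 tested were called higher, and none of the 10 was at 0. Summed FPKM of 5 Schwann cell markers was 7.79 and 12.5 in MCK-TD, against 25.2 and 35.8 in Con-TD. Of 3 tested, 1 was called lower, and 3 were lower at an unadjusted limma p under 0.05. For 8 endothelial markers the sum was 37.0 and 29.0 in MCK-TD, against 48.3 and 69.8 in Con-TD (1 called lower, 5 lower at the unadjusted threshold). For 6 adipocyte markers it was 200 and 135 in MCK-TD, against 223 and 456 in Con-TD (0 called, 2 lower at an unadjusted limma p under 0.05). Most of that sum was Fabp4, at 187 and 116 FPKM in MCK-TD, against 185 and 318 FPKM in Con-TD, with overlapping groups. Of the 4 adipocyte markers tested, 3 had both MCK-TD libraries below both Con-TD libraries, as in 21.3% of all rows. The sum for 7 markers of fibro-adipogenic progenitors was 241 and 344 FPKM in MCK-TD, against 433 and 544 FPKM in Con-TD. Of these, 1 was called lower, and 3 were lower at an unadjusted limma p under 0.05. For 5 satellite cell markers the sum was 10.1 and 9.04 FPKM in MCK-TD, against 7.32 and 7.45 FPKM in Con-TD (0 called by limma, 1 higher at an unadjusted p under 0.05). In bulk tissue fewer cells of a type and less RNA per cell cannot be told apart, and the part of these cells in the values below was not tested.

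MCK-TD muscle had more Cry2 transcript, and less Dbp and Nr1d1 transcript, than Con-TD muscle. Cry2 rose 3.99-fold, while Dbp stood 2.41-fold and Nr1d1 1.92-fold lower. Per3, which passed the filter on low rows through its Con-TD level, was also called and stood 2.67-fold lower. Of the 10 members 9 were tested, 1 was called higher and 3 were called lower. Among all rows the called shares were 24.3% higher and 6.45% lower. Arntl, Clock, Per1, Cry1 and Nr1d2 were not called, and Per2, with a mean below 1 FPKM, was not tested in this fit. Under all 3 other scalings, with 12.7% to 26.9% of all rows called higher and 5.14% to 13.4% lower, the 4 calls also stood. None of them stood when a single library was left out, whichever one, and without a filter on low rows Cry2 alone was called (limma adjusted p = 0.101 for Per3, 0.112 for Dbp and 0.0717 for Nr1d1).

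**Figure D1:**
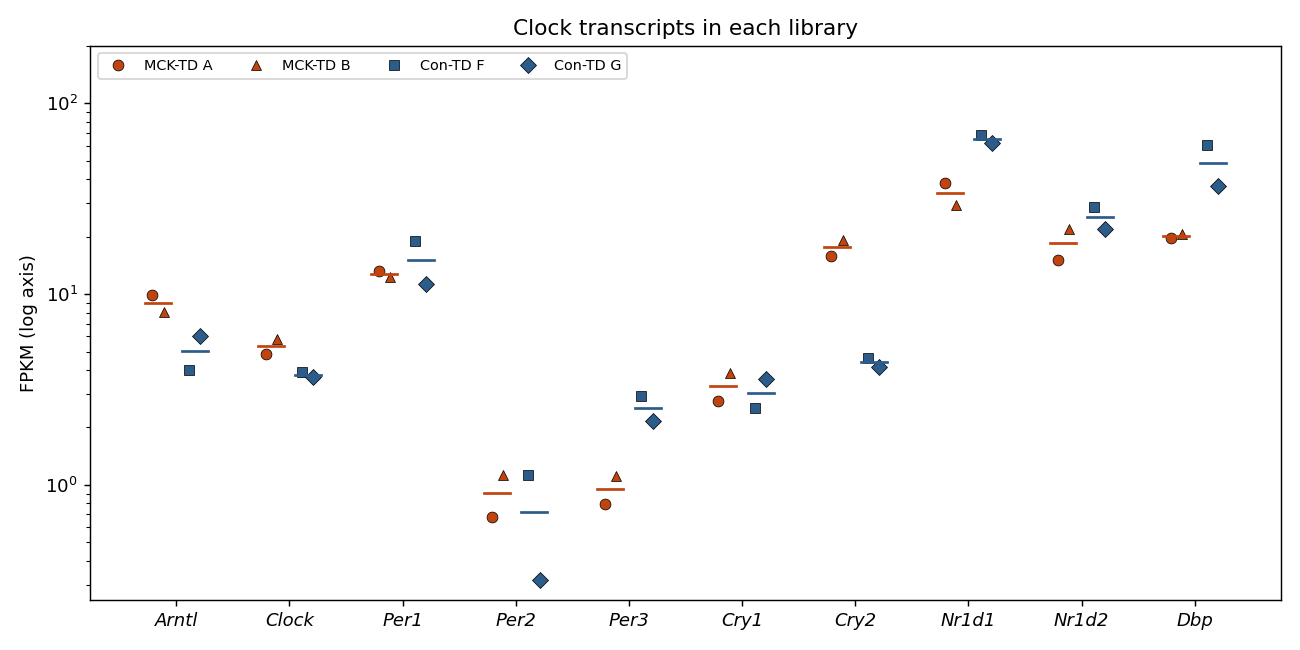
FPKM of the 10 clock transcripts in each library on a log axis, with MCK-TD libraries in orange and Con-TD libraries in blue, and short lines at the group means. Both MCK-TD libraries lie above both Con-TD libraries for Cry2, Arntl and Clock, and below them for Nr1d1, Nr1d2, Dbp and Per3. Of all rows tested, 50.7% lie above in this way and 21.3% below. For Nr1d2, MCK-TD B (21.8 FPKM) and Con-TD G (22.0 FPKM) are almost level.

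The activators come first. Arntl encodes BMAL1, the partner of CLOCK. It was at 9.89 and 8.10 FPKM in MCK-TD A and B, against 4.02 and 6.06 FPKM in Con-TD F and G. Both MCK-TD libraries lay above both Con-TD libraries, as in 50.7% of all rows tested. The log2 change of 0.74 (SE 0.21) did not pass the threshold (limma adjusted p = 0.0659), and its unadjusted 95% interval ran from 0.16 to 1.32. Clock, which encodes the other activator, was at 4.85 and 5.79 FPKM in MCK-TD, against 3.90 and 3.66 FPKM in Con-TD. These groups did not overlap either, and the log2 change of 0.40 (SE 0.13) was not called (limma adjusted p = 0.0840). With median of ratios scaling the log2 changes became 0.52 for Arntl and 0.19 for Clock. The ratio of Arntl to Clock within a library was 2.04 and 1.40 in MCK-TD, against 1.03 and 1.65 in Con-TD, and the groups overlapped.

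The cryptochromes, the main repressors of BMAL1 and CLOCK, differed from each other. Cry2 was at 15.9 and 19.3 FPKM in MCK-TD, against 4.65 and 4.16 FPKM in Con-TD. The lowest MCK-TD value was well above the highest Con-TD value, and the gap was larger than the spread within either genotype. Of all rows, 50.7% had both MCK-TD libraries above both Con-TD libraries. Mean Cry2 was 17.6 ± 2.39 FPKM in MCK-TD and 4.40 ± 0.343 FPKM in Con-TD (SD, n = 2 each), with a log2 change of 1.78 (SE 0.14, limma adjusted p = 0.00778). The change was above that of 96.5% of all rows tested. It was 1.55 with median of ratios scaling, and between 1.65 and 1.91 when a library was left out (limma adjusted p = 0.0603 to 0.0718). Cry1, in contrast, was at 2.76 and 3.84 FPKM in MCK-TD, against 2.52 and 3.58 FPKM in Con-TD, and the groups overlapped. Its log2 change of 0.09 (SE 0.21, unadjusted 95% interval -0.49 to 0.67, limma adjusted p = 0.771) turned to -0.11 with median of ratios scaling. An opposite-strand transcript, D930015M05Rik, overlaps 4.67% of the exon bases of Cry2 and was at or below 0.0845 FPKM in every library.

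Because both cryptochromes are read in the same libraries, their ratio does not depend on any factor applied to a whole library. Cry2 was 5.76 and 5.03 times as abundant as Cry1 in MCK-TD libraries, against 1.85 and 1.16 times in Con-TD libraries. The closest pair of libraries still differed 2.72-fold. With 2 libraries a side, an exact two-sided permutation test cannot give a p below 0.333, which is what this ratio gives. The ranges of Cry2 and Cry1 in each genotype already set this ratio apart, so it adds no further test. The pairs of genes set against each other here were chosen with their values known.

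**Figure D2:**
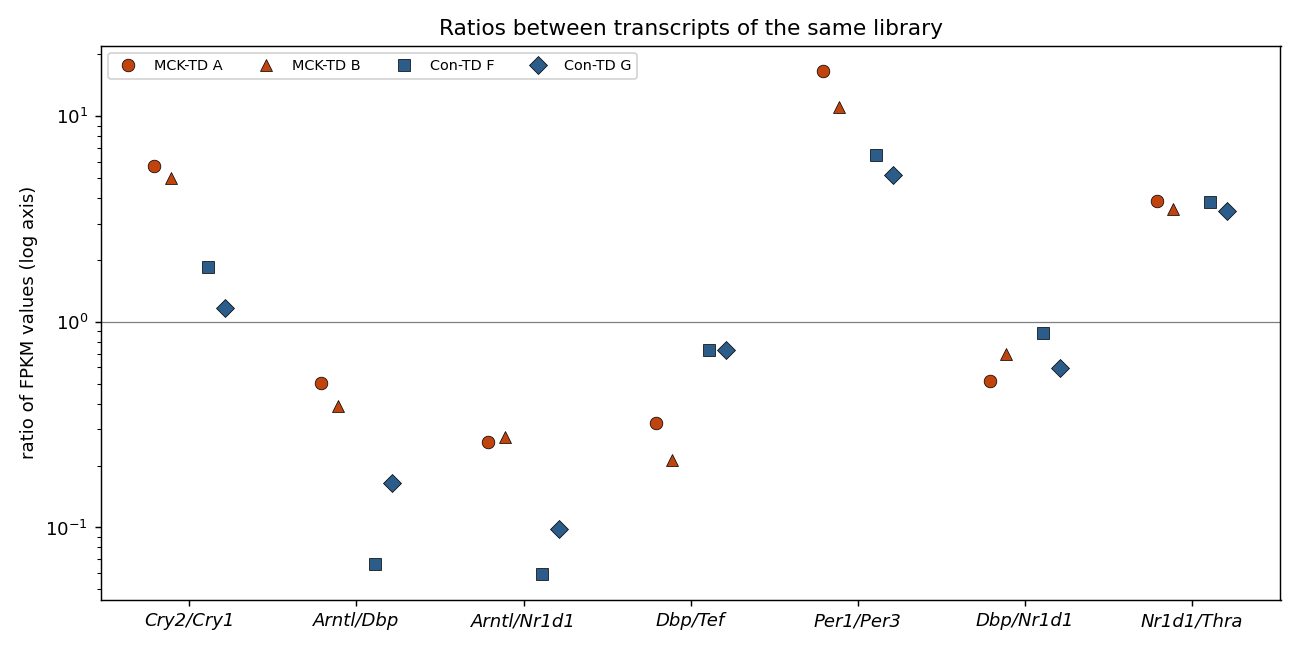
Ratios of FPKM between pairs of transcripts in the same library on a log axis, MCK-TD in orange and Con-TD in blue. The groups stand apart for Cry2/Cry1, Arntl/Dbp, Arntl/Nr1d1, Dbp/Tef and Per1/Per3, and overlap for Dbp/Nr1d1 and Nr1d1/Thra. For each ratio that stands apart, this follows from the ranges of the single genes in the 2 genotypes and adds no further test.

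The period genes encode the partners of the cryptochromes in the repressor complex. Per3 was at 0.793 and 1.11 FPKM in MCK-TD, against 2.92 and 2.16 FPKM in Con-TD. Both MCK-TD libraries lay below both Con-TD libraries, as in 21.3% of all rows. The log2 change was -0.86 (SE 0.19, limma adjusted p = 0.0379) on a scale that understates the change of a gene this low. Per3 passed the filter through its Con-TD level, and without a filter it was not called (limma adjusted p = 0.101). Per1, the period gene with the highest level here, was at 13.1 and 12.3 FPKM in MCK-TD, against 18.9 and 11.3 FPKM in Con-TD. The MCK-TD libraries lay between the Con-TD libraries, and the log2 change of -0.18 (SE 0.26, unadjusted 95% interval -0.89 to 0.52) was not called (limma adjusted p = 0.612). Without Con-TD F it was 0.16. Per2 was the lowest of the members, at 0.681 and 1.13 FPKM in MCK-TD, against 1.12 and 0.316 FPKM in Con-TD. Tested without a filter, Per2 had a log2 change of 0.18 (unadjusted 95% interval -0.84 to 1.19, limma adjusted p = 0.763). Per1 was 16.6 and 11.1 times as abundant as Per3 in MCK-TD, against 6.46 and 5.20 times in Con-TD.

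Nr1d1 encodes REV-ERB alpha and was the most abundant member in both genotypes. It was at 38.1 and 29.5 FPKM in MCK-TD, against 68.1 and 61.7 FPKM in Con-TD. The groups did not overlap, with MCK-TD below as in 21.3% of all rows, and the log2 change was -0.93 (SE 0.16, limma adjusted p = 0.0221). With median of ratios scaling it was -1.18 (limma adjusted p = 0.0193). Nr1d2, for REV-ERB beta, was at 15.0 and 21.8 FPKM in MCK-TD, against 28.5 and 22.0 FPKM in Con-TD. MCK-TD B and Con-TD G were almost level, and the log2 change of -0.45 (SE 0.23, unadjusted 95% interval -1.08 to 0.19) was not called (limma adjusted p = 0.213). Leaving out MCK-TD A gave -0.19 and leaving out Con-TD F gave -0.26, while the fit lacking MCK-TD B gave -0.70 and that lacking Con-TD G gave -0.63. The ratio of Nr1d1 to Nr1d2 was 2.54 and 1.35 in MCK-TD, against 2.39 and 2.81 in Con-TD, and the groups overlapped.

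Nr1d1 shares part of its locus with Thra, the thyroid hormone receptor alpha gene, which lies on the opposite strand. In GENCODE's annotation of GRCm38 the exons of Thra cover 8.55% of the exon bases of Nr1d1, and whether the libraries keep strand is not given in the sources used here, so reads from the shared part cannot be told apart. Thra was at 9.87 and 8.28 FPKM in MCK-TD, against 17.8 and 17.8 FPKM in Con-TD. Its log2 change was -0.91 (SE 0.12, limma adjusted p = 0.0141), close to that of Nr1d1. Nr1d1 was 3.86 and 3.56 times as abundant as Thra in MCK-TD, against 3.82 and 3.46 times in Con-TD. The 2 genes of this locus thus stood in nearly the same ratio in all 4 libraries. How much of either value came from shared reads was not tested.

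Dbp is a direct output of BMAL1 and CLOCK and is among the most strongly rhythmic transcripts in many tissues. It was at 19.7 and 20.7 FPKM in MCK-TD, against 60.3 and 37.0 FPKM in Con-TD. The MCK-TD libraries were close to each other and both lay below the lower Con-TD library, a position below Con-TD shared by 21.3% of all rows. Mean Dbp was 20.2 ± 0.717 FPKM in MCK-TD and 48.7 ± 16.5 FPKM in Con-TD (SD, n = 2 each), with a log2 change of -1.19 (SE 0.25, limma adjusted p = 0.0345). Without Con-TD F the log2 change was -0.85, and without Con-TD G it was -1.54. Sphk2, a sphingosine kinase gene on the opposite strand, covers 18.0% of the exon bases of Dbp. It was at 5.85 and 4.74 FPKM in MCK-TD, against 4.35 and 6.41 FPKM in Con-TD, a log2 change of -0.01 (limma adjusted p = 0.984).

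Arntl stood high against the transcripts of the opposite phase in MCK-TD libraries. Its ratio to Dbp was 0.503 and 0.392 in MCK-TD, against 0.0666 and 0.164 in Con-TD. Against Nr1d1 it was 0.259 and 0.275 in MCK-TD, and 0.0591 and 0.0982 in Con-TD. The closest libraries of the 2 genotypes differed 2.39-fold for the ratio to Dbp and 2.64-fold for the ratio to Nr1d1. For Arntl both MCK-TD libraries lay above both Con-TD libraries, and for Dbp and Nr1d1 below them. These 2 ratios were therefore bound to stand apart and add no further test. Arntl itself was not called (limma adjusted p = 0.0659), and Con-TD F and G also differed from each other in the ratio to Dbp. Dbp and Nr1d1 kept overlapping ratios to each other, 0.516 and 0.701 in MCK-TD, against 0.887 and 0.600 in Con-TD.

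In order of mean FPKM, MCK-TD libraries ran Nr1d1 (33.8), Dbp (20.2), Nr1d2 (18.4), Cry2 (17.6), Per1 (12.7), Arntl (9.00), Clock (5.32), Cry1 (3.30), Per3 (0.952) and Per2 (0.903). Con-TD libraries ran Nr1d1 (64.9), Dbp (48.7), Nr1d2 (25.3), Per1 (15.1), Arntl (5.04), Cry2 (4.40), Clock (3.78), Cry1 (3.05), Per3 (2.54) and Per2 (0.720). Cry2 held place 4 in MCK-TD and place 6 in Con-TD. Within MCK-TD, the libraries of Nr1d2 overlapped those of both its neighbours, Dbp and Cry2, and Per3 overlapped Per2. Within Con-TD, Arntl overlapped Cry2 and Cry1 overlapped Per3, so these neighbours do not differ beyond their spread.

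The Con-TD libraries differed from each other in several members. Con-TD F held 3.55 times as much Per2 as Con-TD G, 1.68 times as much Per1, 1.63 times as much Dbp and 1.35 times as much Per3. Arntl and Cry1 were at 0.663 and 0.703 of their Con-TD G level. Cry2, at 1.12 times, Nr1d1, at 1.10 times, and Clock, at 1.07 times, differed little. The MCK-TD libraries ranged from 0.605 for Per2 to 1.29 for Nr1d1, as the ratio of A to B.

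Of 12 other factors of the clock loops, 8 were tested, 1 was called lower, Hlf, and 0 were called higher by limma, against 24.3% of all rows higher and 6.45% lower. At an unadjusted limma p under 0.05, 2 were lower, Hlf and Bhlhe40, and 0 higher. Over all 12474 rows, 4281 were higher and 1378 lower at that threshold. The median log2 change of the 8 was -0.28, against 0.22 over all rows. Hlf belongs with Dbp and Tef to the family of D-box activators. It was at 0.296 and 0.404 FPKM in MCK-TD, against 2.77 and 1.64 FPKM in Con-TD, a log2 change of -1.22 (SE 0.24, limma adjusted p = 0.0284), and it passed the filter through its Con-TD level. Tef, the third of the family, was at 60.8 and 97.2 FPKM in MCK-TD, against 82.3 and 50.8 FPKM in Con-TD. The groups overlapped and Tef was not called (limma adjusted p = 0.606). Dbp was at 0.323 and 0.213 of the Tef level in MCK-TD, against 0.733 and 0.729 in Con-TD. Nfil3, which represses through the same D-box, was at 26.5 and 20.0 FPKM in MCK-TD, against 30.1 and 18.1 FPKM in Con-TD (limma adjusted p = 0.958).

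**Figure D3:**
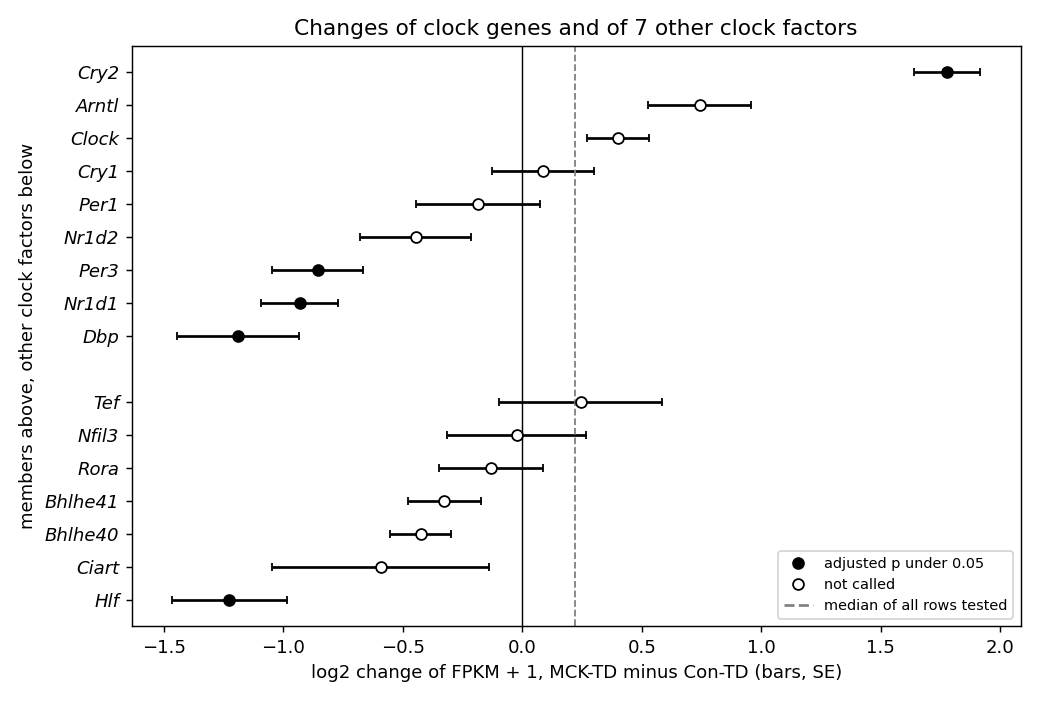
Log2 change of FPKM + 1, MCK-TD minus Con-TD, with its SE, for the 9 members tested (top) and 7 of the other clock factors (bottom). Filled points are Cry2, Per3, Nr1d1, Dbp and Hlf, which passed the threshold, and the dashed line is the median of all rows at 0.22.

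Among repressors outside the PER and CRY families, Bhlhe40 (DEC1) was at 34.9 and 32.2 FPKM in MCK-TD, against 49.3 and 41.6 FPKM in Con-TD. Bhlhe41 (DEC2) was at 6.09 and 7.87 FPKM in MCK-TD, against 9.40 and 8.49 FPKM in Con-TD. Neither was called (limma adjusted p = 0.0724 and 0.176). With median of ratios scaling Bhlhe40 was called lower (log2 change -0.68, limma adjusted p = 0.0365) and Bhlhe41 was not called (-0.55, limma adjusted p = 0.0654). For each, both MCK-TD libraries lay below both Con-TD libraries, as in 21.3% of all rows. Ciart, or CHRONO, a repressor of BMAL1 and CLOCK listed under its older symbol Gm129, was at 4.33 and 4.77 FPKM in MCK-TD. In Con-TD it was at 12.0 and 4.37 FPKM, so that Con-TD F alone stood apart. Rora, a receptor that activates Arntl where REV-ERB represses it, was not called. It was at 7.47 and 9.25 FPKM in MCK-TD, against 11.1 and 7.57 FPKM in Con-TD. Npas2, Arntl2, Rorb and Timeless fell below the filter.

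Of 17 kinases and ubiquitin enzymes that act on clock proteins 16 were tested. By limma 3 were called higher and 0 lower, against 24.3% of all rows higher and 6.45% lower. At an unadjusted limma p under 0.05, 7 were higher and 3 lower, against 4281 and 1378 of the 12474 rows. The median log2 change of the 16 was 0.08. Quantile normalization called 2 higher and 4 lower, against 12.7% and 13.4% of all rows. Median of ratios scaling called 2 higher and 3 lower, against 14.6% and 12.1% of all rows. Prkaa1, a catalytic subunit of the AMP-activated kinase, which phosphorylates cryptochromes, rose to 10.5 and 10.8 FPKM in MCK-TD, against 3.44 and 3.48 FPKM in Con-TD (log2 change 1.38, SE 0.10, limma adjusted p = 0.00741). The other catalytic subunit, Prkaa2, was at 20.6 and 21.7 FPKM in MCK-TD, against 29.0 and 27.0 FPKM in Con-TD, and was just outside the threshold (limma adjusted p = 0.0515). Prkaa2 was called lower with median of ratios scaling (log2 change -0.64, limma adjusted p = 0.0241). Siah2, a ubiquitin ligase of REV-ERB alpha, rose to 9.39 and 8.04 FPKM in MCK-TD, against 3.63 and 2.96 FPKM in Con-TD (log2 change 1.18, limma adjusted p = 0.0124). Gsk3b, a kinase of several clock proteins, also rose (log2 change 0.57, limma adjusted p = 0.0475), but was not called with median of ratios scaling (0.34, limma adjusted p = 0.169). Csnk2a1, a casein kinase 2 subunit, had a log2 change of 0.38 and was not called (limma adjusted p = 0.0730).

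All 15 co-regulators of the loop were tested. By limma 3 were called higher and 0 lower, against 24.3% of all rows higher and 6.45% lower. At an unadjusted limma p under 0.05, 3 were higher and 1 lower, against 4281 and 1378 of the 12474 rows. The median log2 change of the 15 was 0.08. Quantile normalization and median of ratios scaling each left 1 call higher, and the first of these also called 2 lower. Of all rows, quantile normalization called 12.7% higher and 13.4% lower, and median of ratios scaling 14.6% and 12.1%. Ddb1, part of a ubiquitin ligase, rose to 76.5 and 88.2 FPKM in MCK-TD, against 39.1 and 38.6 FPKM in Con-TD. Nono, a partner of PER proteins, rose by 0.67 on the log2 scale and Tbl1xr1, of the co-repressor complex of nuclear receptors, by 0.51. Neither was called with median of ratios scaling (0.43 for Nono and 0.31 for Tbl1xr1, limma adjusted p = 0.0753 and 0.117). Ep300 and Sfpq had log2 changes of -0.39 and 0.28 and were not called (limma adjusted p = 0.0981 and 0.121).

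Genes known as rhythmic in muscle or other tissues moved in both directions. Of 20 such genes 19 were tested, 5 rose and 3 fell, against 24.3% of all rows higher and 6.45% lower. Scaled by median of ratios, 4 were called higher and 4 lower, against 14.6% and 12.1% of all rows. After quantile normalization 3 were higher and 5 lower, against 12.7% and 13.4% of all rows. The median log2 change was 0.25, close to that of all rows. Rbm3, a cold-inducible RNA-binding protein, rose to 54.7 and 73.5 FPKM in MCK-TD, against 16.7 and 20.7 FPKM in Con-TD (log2 change 1.72, SE 0.20, limma adjusted p = 0.0115). Tbc1d1, a regulator of glucose transporter traffic, rose to 39.0 and 48.2 FPKM in MCK-TD, against 12.3 and 14.3 FPKM in Con-TD (limma adjusted p = 0.00903). Pdk4, which inhibits pyruvate dehydrogenase, rose to 180 and 178 FPKM in MCK-TD, against 84.4 and 59.5 FPKM in Con-TD (limma adjusted p = 0.0164). The myogenic factor Myod1 and the glucocorticoid target Tsc22d3 were the other 2 that rose. Besides Hlf, Ucp3, a mitochondrial carrier, fell to 12.5 and 8.76 FPKM in MCK-TD, against 32.9 and 20.4 FPKM in Con-TD (limma adjusted p = 0.0435). Slc2a4, the insulin-responsive glucose transporter, fell to 118 and 83.8 FPKM in MCK-TD, against 219 and 212 FPKM in Con-TD (limma adjusted p = 0.0221). Myod1, Tsc22d3 and Slc2a4 were named after their values were seen.

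**Figure D4:**
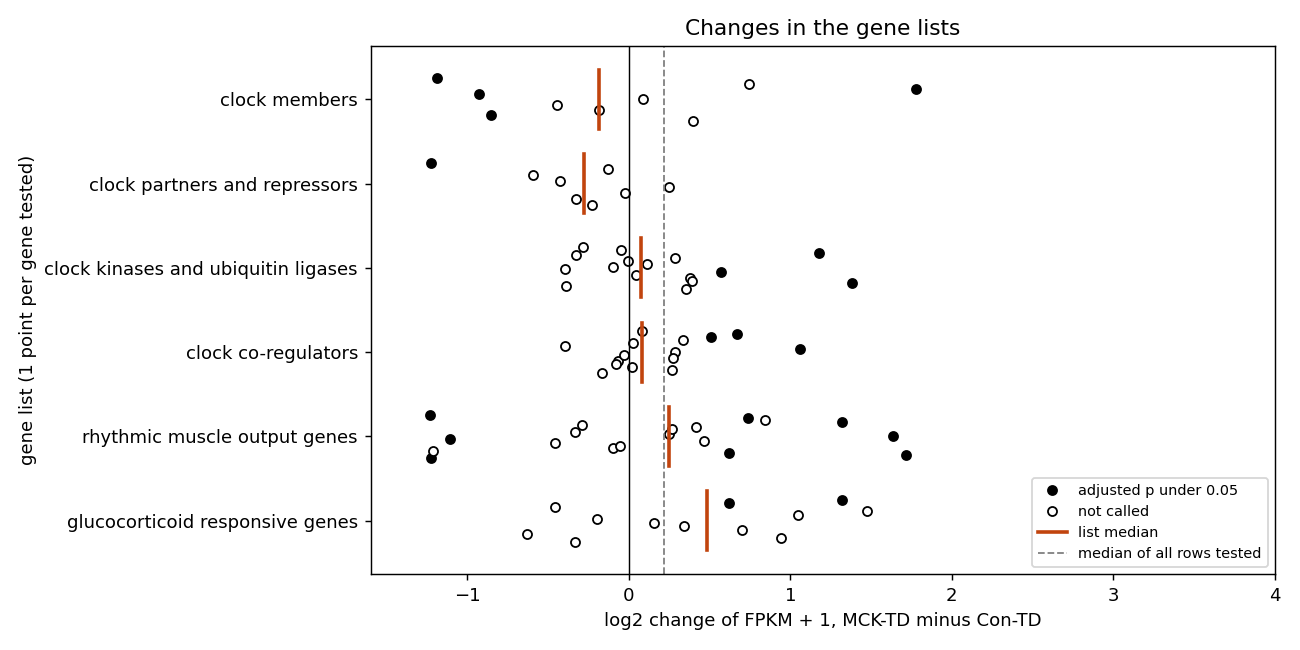
Log2 change of FPKM + 1, MCK-TD minus Con-TD, of each gene tested in the 10 clock members and in 5 other lists. Filled points passed the threshold, orange lines are list medians (-0.18 for the members, -0.28 for other clock factors), and the dashed line is the median of all rows at 0.22.

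Glucocorticoids are a systemic timing cue that acts on Per1 directly. Of 12 glucocorticoid responsive genes, 2 rose, Pdk4 and Tsc22d3, and 0 fell, against 24.3% of all rows higher and 6.45% lower (limma). At an unadjusted limma p under 0.05, 3 were higher and 2 lower, against 4281 and 1378 of the 12474 rows. The median log2 change of the 12 was 0.48. Their summed FPKM was 1346 and 1502 in MCK-TD A and B, against 1079 and 546 in Con-TD F and G, so the Con-TD libraries differed from each other. With median of ratios scaling 1 rose and 1 fell, against 14.6% of all rows higher and 12.1% lower. Tsc22d3 was at 136 and 156 FPKM in MCK-TD, against 99.9 and 89.0 FPKM in Con-TD, and was not called under that scaling (log2 change 0.37, limma adjusted p = 0.106). Fkbp5, a chaperone of the glucocorticoid receptor, was at 18.6 and 22.1 FPKM in MCK-TD, against 13.2 and 6.51 FPKM in Con-TD, and was not called (limma adjusted p = 0.0838). The Krüppel-like factor Klf9 was at 22.7 and 22.0 FPKM in MCK-TD, against 41.3 and 29.8 FPKM in Con-TD (limma adjusted p = 0.0656). Klf9 was called lower with median of ratios scaling (log2 change -0.88, limma adjusted p = 0.0422). Klf15, another factor of that family, had a log2 change of -0.46 (limma adjusted p = 0.0955). The lists share members, among them Hlf, Pdk4 and Tsc22d3.

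Median of ratios scaling and quantile normalization lowered the log2 change of all 9 members tested, and the rescaling without mitochondrial and small RNA rows raised it. Over the 4 fits that left out a library, the log2 change of Cry2 ran from 1.65 to 1.91 and that of Dbp from -1.54 to -0.85. The direction stayed the same in all fits run for Cry2, Dbp, Nr1d1, Nr1d2, Per3, Arntl and Clock, and turned in some for Cry1 and Per1.

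**Figure D5:**
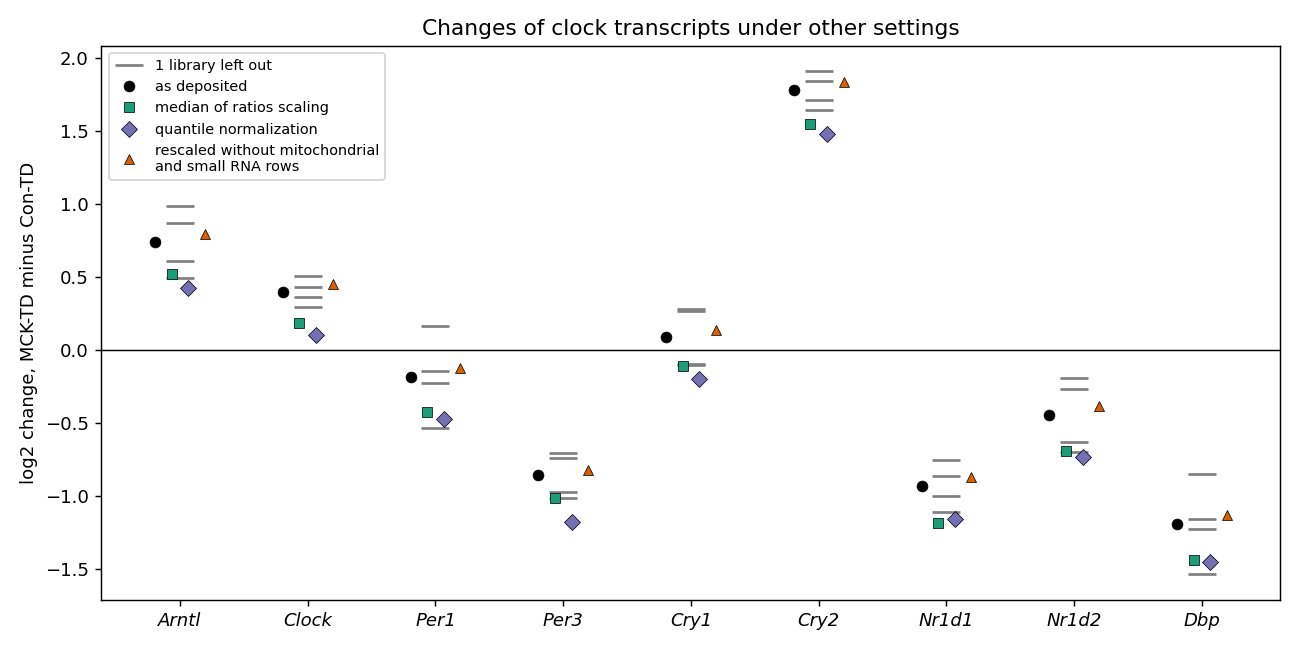
Log2 change, MCK-TD minus Con-TD, of the 9 members tested, as deposited and with 3 other scalings (symbols), and with 1 library left out (grey bars). Cry2 stays above 1.4 throughout, and Cry1 and Per1 have values on both sides of 0.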

How the data were processed

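RNA was extracted with Trizol and treated with DNase, and BGI enriched mRNA and sequenced the libraries, per the labels' protocols and the design text. The values are FPKM computed and deposited by the authors, 1 per row and library. The submitters' processing notes list STAR, Cufflinks and build mm9. Tool versions, the annotation and the strand setting were not given in the sources used here. Notes in the other sheets were not used.

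Rows with a mean of at least 1 FPKM (12474) were tested as log2(FPKM + 1), so that fold changes of low genes are understated. Limma 3.58.1 under R 4.3.3 fitted genotype alone, with 2 residual degrees of freedom and an intensity trend, two-sided, with Benjamini-Hochberg adjustment over all rows. Fold values are ratios of mean FPKM. The fit was tested on simulated data. Whole reads were not recovered. Relative depth is the most frequent ratio between libraries over rows under 0.2 FPKM. Alternatives were a pseudocount of 0.1, no filter or a mean of at least 5 FPKM, 3 other scalings, no trend and leaving out each library. All members are named. Of each list up to 5 genes are named, called genes with the largest change first and then those with the smallest p, besides other clock factors and genes marked as named later. A member of 1 list is not reported here. The members and lists were chosen with earlier results of these data known. Ciart and Adgre1 were found under Gm129 and Emr1 through RefSeq synonyms. GRCm38 annotation was used for names, overlapping exons and sequences.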

Additional observations from a re-analysis of the deposited data

How the results depend on the processing

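No paired analysis was possible because the labels give the libraries letters that the genotypes do not share. With 1 library left out, 63 to 133 of all rows were called higher and 8 to 79 lower, against 3033 and 804 with all 4, and members and genes of the 5 lists gave 0 calls by limma in either direction, with 3 to 6 members at an unadjusted p under 0.05. The lone library of a genotype is then assumed to vary like the others. The log2 changes were 1.65 to 1.91 for Cry2, -1.54 to -0.85 for Dbp, -1.11 to -0.75 for Nr1d1, -1.01 to -0.70 for Per3, -0.70 to -0.19 for Nr1d2, -0.10 to 0.28 for Cry1 and -0.53 to 0.16 for Per1. Without a filter, 25620 rows were tested, 1668 were called higher and 375 lower. Dbp (-1.19, limma adjusted p = 0.112), Nr1d1 (-0.93, limma adjusted p = 0.0717) and Per3 (-0.86, limma adjusted p = 0.101) then missed the threshold, so 0 members were called lower (3 at an unadjusted p under 0.05), and Cry2 was still called. Among the lists, 0 other clock factors, 2 kinases or ligases (higher), 1 co-regulator (higher), 3 rhythmic genes (higher, 0 lower) and 0 glucocorticoid genes were called. Of all calls, 79.0% were higher on the deposited scale. Median of ratios scaling called 1823 rows higher and 1508 lower (54.7% higher). After quantile normalization 1588 were higher and 1667 lower (48.8%), and after rescaling on rows other than mitochondrial and small RNA 84.0% were higher. Cry1 turned to -0.11 with median of ratios scaling and to -0.19 with quantile normalization. With median of ratios scaling the lists gave 2 kinases or ligases, 1 co-regulator, 4 rhythmic genes and 1 glucocorticoid gene higher. That scaling gave 3 kinases or ligases, 2 other clock factors, 4 rhythmic genes and 1 glucocorticoid gene lower. With quantile normalization 2 kinases or ligases, 1 co-regulator, 3 rhythmic genes and 1 glucocorticoid gene were higher. Lower under it were 4 kinases or ligases, 2 co-regulators, 3 other clock factors, 5 rhythmic genes and 2 glucocorticoid genes. With a mean of at least 5 FPKM, 7474 rows were tested, 2227 were called higher and 659 lower, and 0 other clock factors were called. In that fit 3 kinases or ligases, 2 co-regulators, 6 rhythmic genes and 2 glucocorticoid genes were higher. Lower in it were 1 kinase or ligase, 2 rhythmic genes and 1 glucocorticoid gene. Per3 could not be tested there. A pseudocount of 0.1 and a fit without trend kept the 4 member calls, and each member stood on 1 row, so summing rows changed nothing. The cause of these shifts was not tested beyond the change in rows or libraries itself. Absolute depth is unknown, so what it limits for Per2 and Per3, the 2 members with the lowest levels, cannot be given.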
